A study of Mus musculus with 2 samples.

Results

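The genes described here have symbols in the form of a cluster of differentiation (CD) number. Most encode surface antigens, though Cd3eap does not. CD-numbered below refers to the symbol alone, and a gene with another symbol may encode a CD antigen too. The genes were chosen by symbol, as the rows whose gene symbol begins with Cd and a digit. Left out were Cd40, Cd80, Cd86, Cd8a, Cd24a, Cd36, Cd2ap and Cd2bp2. This gave 30 of the 4898 gene rows of the table. The cells were DC1940, a wild-type C57BL/6 mouse line of CD8α+ dendritic cells that carried an empty vector and had been activated with pIC (polyinosinic-polycytidylic acid), an agonist of the RNA receptor TLR3. There was 1 such group, with 2 libraries of poly(A)-selected RNA sequenced on an Illumina HiSeq instrument, and no second condition was analysed here. A single line in culture stands in for a cell type of the spleen and lymph nodes, and the time of exposure to pIC is not given for these libraries.

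CD numbers were given to leukocyte surface molecules as antibodies to them were found, so the numbered genes share a cell surface and little else. Tetraspanins span the membrane several times and gather integrins and other receptors into patches. Adhesion molecules and their counter-receptors hold a dendritic cell to a T cell or to its matrix, and inhibitory ligands such as PD-L1 temper the T cell's response. C-type lectins bind sugars on microbes and on other cells, and lineage antigens are used to tell B cells, T cells and myeloid cells apart.

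Each gene had 1 value, the authors' FPKM (a count of sequenced fragments divided by transcript length and by the fragments mapped in all) for the stimulated cells, with the 2 libraries combined. No value below therefore has an error, and an order between genes with near values cannot be told apart from the spread between libraries. A ratio to a gene under 1 FPKM rests on a value without measured precision. The sheet of the table is named for differentially expressed genes between unstimulated and pIC-treated cells, but the direction and size of each change were not analysed here. All values are levels after pIC. FPKM is scaled to transcript length, so levels may be compared between genes. In a bulk sample, fewer cells with a transcript and less of it per cell cannot be told apart. Markers of cell types were looked up beside the cell type label: 9 of 12 markers of CD8α+ dendritic cells had a row, at 5.62 to 387 FPKM. Of the other types, 0 of 5 B cell, 0 of 3 natural killer cell and 1 of 6 T cell markers had a row (the T cell gene Lck, at 1.22 FPKM). Macrophage and monocyte markers had 5 of 8, at 0.329 to 33.2 FPKM. Markers of plasmacytoid dendritic cells had 2 of 3, Tcf4 at 5.41 FPKM and Bst2, which is also induced by interferon, at 602, above every listed CD8α+ dendritic cell marker. Those of other conventional dendritic cells had 1 of 4 (Itgam, at 0.176 FPKM) and those of platelets and endothelium 1 of 3 (Cdh5, at 3.45 FPKM). The part of such cells in the levels below was not tested. A marker with no row has no level here. As the sheet is named for differentially expressed genes, the counts of markers with a row do not test the cell type label.

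A few CD-numbered genes stood at high levels and most at low ones. Cd82, Cd83, Cd47 and Cd44 had 366, 294, 192 and 132 FPKM and made up 78.8% of the FPKM summed over the 30 genes. The median was 2.74 FPKM (quartiles 0.765 and 29.95), against 9.68 FPKM over all 4898 rows (quartiles 2.32 and 33.4). At 100 FPKM or more there were 4 of the 30 genes (13.3%), against 9.60% of all rows. There were 2 at 200 FPKM or more, against 4.65% of all rows, 5 at 50 FPKM or more, against 18.2%, and 11 (36.7%) at 10 FPKM or more, against 49.4%. Under 1 FPKM there were 8 (26.7%), against 14.1% of all rows. The median of the CD-numbered genes thus lay under that of the table, while their upper quartile was close to that of the table. With the 7 listed genes that the rule leaves out, their median was 8.44 FPKM, nearer to that of the table. No test was made of these shares, since genes are not replicates. In the order of the table's rows, 17 of the 30 genes (56.7%) stood in the first run of rising locus numbers, against 49.1% of all rows, a share near the background, and Cd9 stood in the last row.

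**Figure D1:**
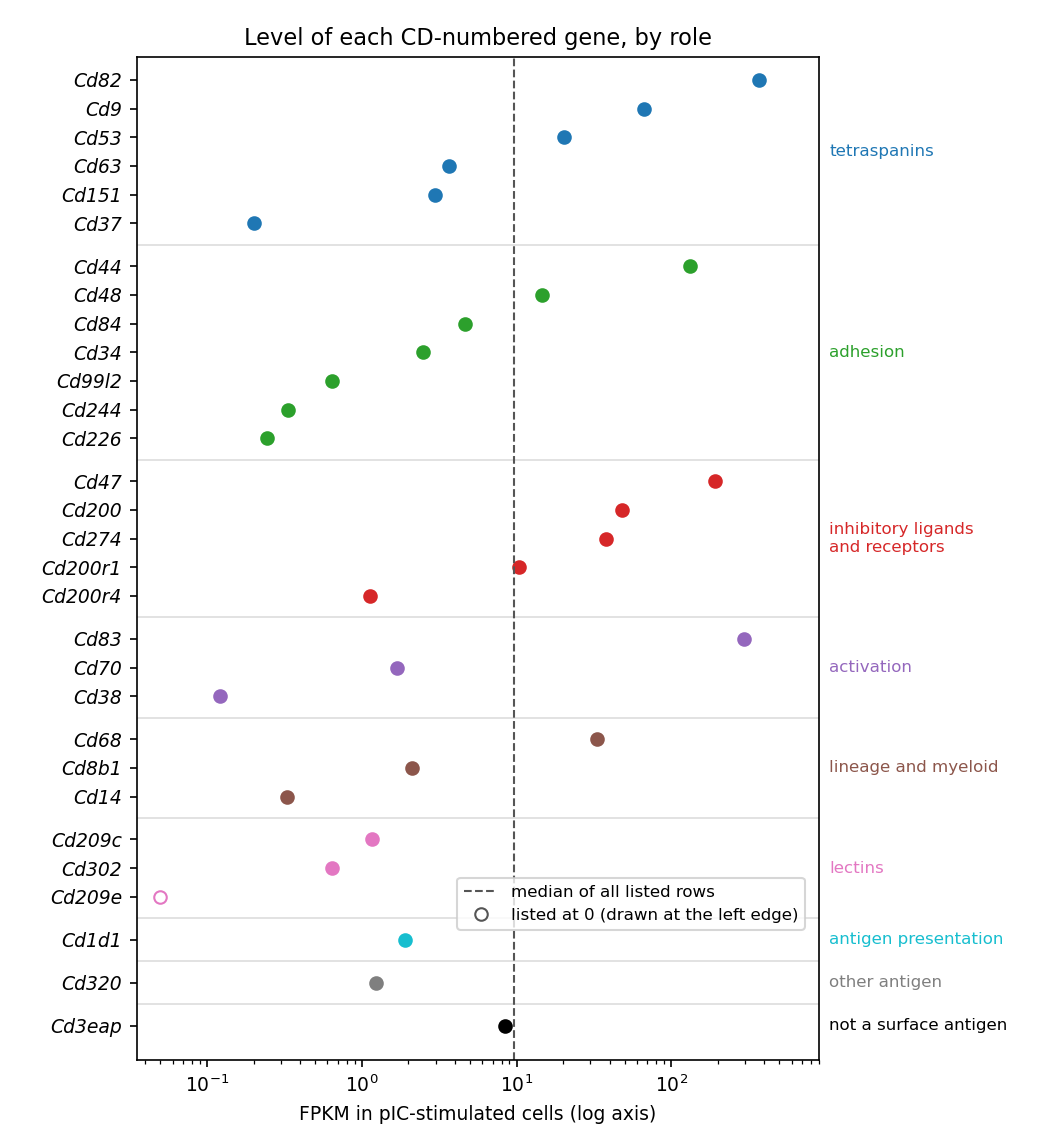
Level of each of the 30 CD-numbered genes in pIC-stimulated cells, in FPKM on a log axis, 1 point per gene (the authors' value over both libraries), grouped by role. The dashed line is the median of all listed rows, 9.68 FPKM. Tetraspanins, adhesion molecules, inhibitory ligands and receptors, activation antigens, and lineage and myeloid antigens each spread over more than 100-fold. The spread of the inhibitory group rests on Cd200r4 (1.13 FPKM), placed there as a paralog of Cd200r1. Cd209e is listed at 0.

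**Figure D2:**
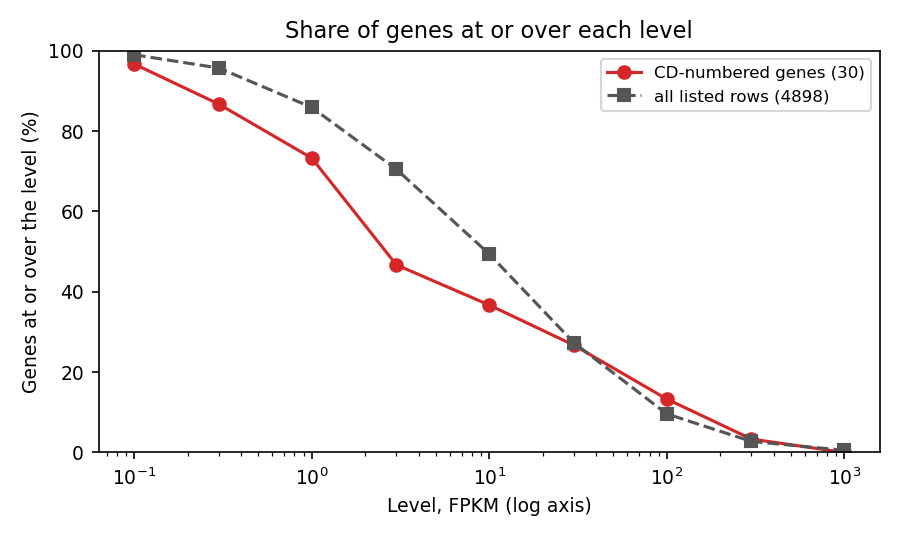
Percentage of the CD-numbered genes (circles) and of all listed rows (squares) at or over each FPKM level, on a log axis. The curves differ most at 3 FPKM, with 46.7% of the CD-numbered genes against 70.5% of all rows, and come together from 30 FPKM up, at 26.7% against 27.3%.

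RefSeq annotates 92 mouse protein-coding genes that fit the rule, and 30 of them (32.6%) had a row, against 22.2% of all RefSeq protein-coding genes. The share differed between roles. Of the CD-numbered tetraspanins, 6 of 7 had a row, and of the adhesion molecules 7 of 14. There were 1 of 2 genes of antigen presentation, 3 of 7 activation antigens and 5 of 13 genes grouped as inhibitory ligands and receptors. Lectins had 3 of 13 and lineage and myeloid antigens 3 of 27. None of the 5 complement regulators (0 of 5: Cd46, Cd55, Cd55b, Cd59a and Cd59b) had a row. Other complement genes, fixed as a list beside them, had 7 of 9 rows, among them the C1q chains C1qc, C1qb and C1qa at 52.2, 51.5 and 48.3 FPKM. After them came Cr1l at 8.04, C3ar1 at 4.04 and C5ar1 at 1.46 FPKM. Why a gene has no row was not analysed here.

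**Figure D3:**
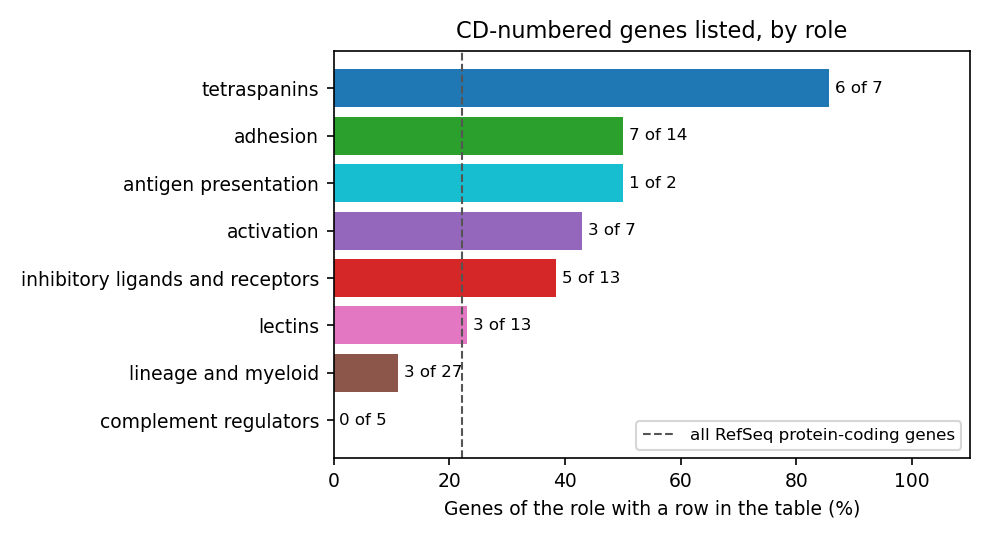
Percentage of the RefSeq protein-coding genes of each role that have a row in the table, with the counts beside the bars. The dashed line marks the 22.2% of all RefSeq protein-coding genes. The single-gene role of Cd3eap and the mixed role of Cd320 are not drawn. Tetraspanins stand at 85.7%, lineage and myeloid antigens at 11.1% and complement regulators at 0.

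The tetraspanins held both the highest CD-numbered gene and one of the lowest. Cd82, which encodes a tetraspanin that organises integrins and antigen-presenting molecules at the membrane, had 366 FPKM (mm10, chromosome 2, 93419102 to 93469874), rank 105 of 4898 rows, in a row with 7 RefSeq accessions. Cd9, a partner of integrins in adhesion and membrane fusion, had 67.0 FPKM (chromosome 6, 125460266 to 125494755). The leukocyte tetraspanin gene Cd53 had 20.1 FPKM. Cd63, best known from late endosomes and exosomes, had 3.66, and Cd151, a partner of laminin-binding integrins, 2.97. Cd37, which encodes a tetraspanin of B cells and other leukocytes, had 0.201 FPKM in a row whose interval touches the neighbouring gene Tead2. Cd82 was thus 5.47 times Cd9 and 1819 times Cd37, the latter ratio resting on a value under 1 FPKM.

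Tetraspanins without a CD symbol covered a like range. Of 17 Tspan genes, 8 had a row (47.1%, against 22.2% of all RefSeq protein-coding genes), with a median of 13.5 FPKM. The lists of genes without a CD symbol were chosen with earlier results of these data known. Their listed shares are thus no result about them. Tspan3 led at 246 FPKM, or 0.671 of Cd82, followed by Tspan33 at 52.9, Tspan31 at 35.2, Tspan2 at 23.2, Tspan13 at 3.74 and Tspan9 at 2.54. The Tspan31 interval overlaps Cdk4. Of 8 proteins that tetraspanins bind, 4 had a row. The integrin chain genes Itgb1 and Itga4 had 232 and 69.0 FPKM. The sheddase gene Adam17 had 40.0 FPKM and Igsf8, whose product binds CD9 and CD81, 4.99.

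Among the adhesion molecules, the receptor for the matrix sugar hyaluronan stood far above the rest. Cd44 had 132 FPKM (chromosome 2, 102811142 to 102901665), rank 364, and its row combined 6 accessions, so its splice forms cannot be told apart. Cd48, a glycolipid-anchored ligand of the natural killer cell receptor CD244, had 14.7 FPKM, and Cd84, which binds itself on other cells, 4.62. The sialomucin gene Cd34, known from blood stem cells and endothelium, had 2.50 FPKM. Cd99l2, an adhesion molecule of leukocyte passage through vessel walls, had 0.640 FPKM. The receptor genes Cd244 and Cd226, both known from natural killer and T cells, had 0.333 and 0.244 FPKM. Cd48 was thus 44.0 times its receptor gene Cd244.

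Of 20 further integrin and adhesion genes, 10 had a row, with a median of 27.7 FPKM. Icam1, a ligand of the T cell integrin LFA-1, had 475 FPKM, 3.604 times Cd44. Selplg, a selectin ligand, had 135 FPKM, F11r 52.7, and the integrin chain genes Itgax, Itgal and Itgav 47.9, 38.1 and 17.3. Of 8 genes of the SLAM family and its adaptors without a CD symbol, 2 had a row. These were Slamf7 at 28.0 FPKM and Ly9 at 0.158, the latter in an interval that overlaps the annotated span of Cd244. The intervals of Itga4, Adam17, Lilrb4a, Clec9a and Clec2i also overlap another coding gene, and reads shared in this way were not measured.

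Of the 5 listed genes grouped as inhibitory ligands and receptors, 4 lay above the median of the table. Cd47, the signal that holds back phagocytes through SIRPα, had 192 FPKM (chromosome 16, 49855654 to 49911683), rank 239. Cd200, the ligand of the inhibitory receptor CD200R, had 47.8 FPKM (chromosome 16, 45382135 to 45409053). Cd274, which encodes PD-L1, had 37.6 FPKM (chromosome 19, 29367438 to 29388094). Cd47 was 4.02 times Cd200 and 5.11 times Cd274, while Cd274 was 0.787 of Cd200. The receptor gene Cd200r1 had 10.3 FPKM. Its paralog Cd200r4, grouped here by family and not by a known inhibitory action, had 1.13 FPKM. Cd200 and its receptor gene Cd200r1 were thus both listed, with Cd200 at 4.62 times Cd200r1. Reads shared between the similar Cd200r genes were not measured, so their values are uncertain.

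Of 18 other checkpoint and costimulation genes, 9 had a row, with a median of 32.1 FPKM. Ptpn6, the phosphatase that acts behind many inhibitory receptors, had 177 FPKM and the ligand gene Icosl 159. Nectin2, listed under its older symbol Pvrl2, had 105 FPKM and Pvr 32.1, and both encode ligands of CD226. Tnfsf9 had 64.7 FPKM and the inhibitory receptor gene Lilrb4a 20.96. The ligand genes Nectin2 and Pvr thus stood far above Cd226, at 0.244 FPKM.

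The activation antigens split between 1 very high gene and a pair of low ones. Cd83, a marker of mature dendritic cells that keeps MHC class II and CD86 at the surface, had 294 FPKM (chromosome 13, 43785112 to 43803133), rank 141. Among the costimulatory genes that the rule leaves out, Cd40 was 1.76 times, Cd86 0.633 times and Cd80 0.518 times Cd83. Cd70, the ligand of the T cell receptor CD27, had 1.69 FPKM (chromosome 17, 57145997 to 57149777), and Cd83 was 174 times that. Cd38, an enzyme that breaks down NAD, had 0.122 FPKM (chromosome 5, 43868809 to 43912374), the lowest value above 0 among the 30 genes.

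The 3 listed lectins that are CD-numbered by symbol were all low. Cd209c and Cd209e, mouse relatives of the dendritic cell lectin DC-SIGN, had 1.16 FPKM and a listed value of 0, and as the Cd209 copies resemble one another, both are uncertain. Cd302 had 0.641 FPKM (chromosome 2, 60251993 to 60284484). Its row ends 9.28 kb from that of Ly75, which encodes the uptake receptor DEC-205 and had 106 FPKM, 165 times Cd302. Of 23 lectin genes without a CD symbol, 12 had a row (52.2%, against 22.2% of all RefSeq protein-coding genes). Their median was 16.8 FPKM. The highest were Lgals3 at 216 FPKM, Clec2d at 155, Lgals9 at 108 and Ly75, followed by Clec9a at 57.0 and Clec2i at 16.99.

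Of the lineage and myeloid antigens, Cd68 stood apart. This gene of a lysosomal glycoprotein of macrophages had 33.2 FPKM (chromosome 11, 69664213 to 69666170), 101 times the 0.329 FPKM of Cd14, the co-receptor for lipopolysaccharide. Cd8b1, the β chain of CD8, had 2.11 FPKM (chromosome 6, 71322812 to 71337451). CD8α+ dendritic cells are known to carry CD8 as a pair of α chains, and Cd8a had 292 FPKM, 139 times Cd8b1. Cd1d1, which presents lipids to natural killer T cells, had 1.90 FPKM, and reads shared with its near copy Cd1d2 were not measured. Cd320, the receptor that takes up vitamin B12 on its carrier, had 1.24 FPKM. The remaining gene, Cd3eap, fits the rule by symbol only: it encodes a subunit of RNA polymerase I and had 8.44 FPKM, in a row whose interval also covers Ercc1.

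Several of the 30 genes lie next to a relative, and neighbours differed widely in level. In the cluster of SLAM family genes on chromosome 1, a span of 332 kb from Cd244 to Cd84 held 5 rows. In the order in which they lie, Cd244 had 0.333 FPKM, Ly9 0.158, Slamf7 28.0, Cd48 14.7 and Cd84 4.62. Slamf7 was 1.91 times Cd48, its neighbour at a gap of 29.0 kb, and Cd48 was 3.17 times Cd84. On chromosome 16, Cd200r1 was 9.12 times Cd200r4 at a gap of 25.8 kb, and Cd200 lay 587.0 kb beyond Cd200r1. Between them Ccdc80 had 0.471 FPKM. The CD8 chain genes lie 36 kb apart on chromosome 6. In all, the 30 genes lie on 15 chromosomes, with 4 each on chromosomes 1 and 16 and 3 each on 2 and 7.

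**Figure D4:**
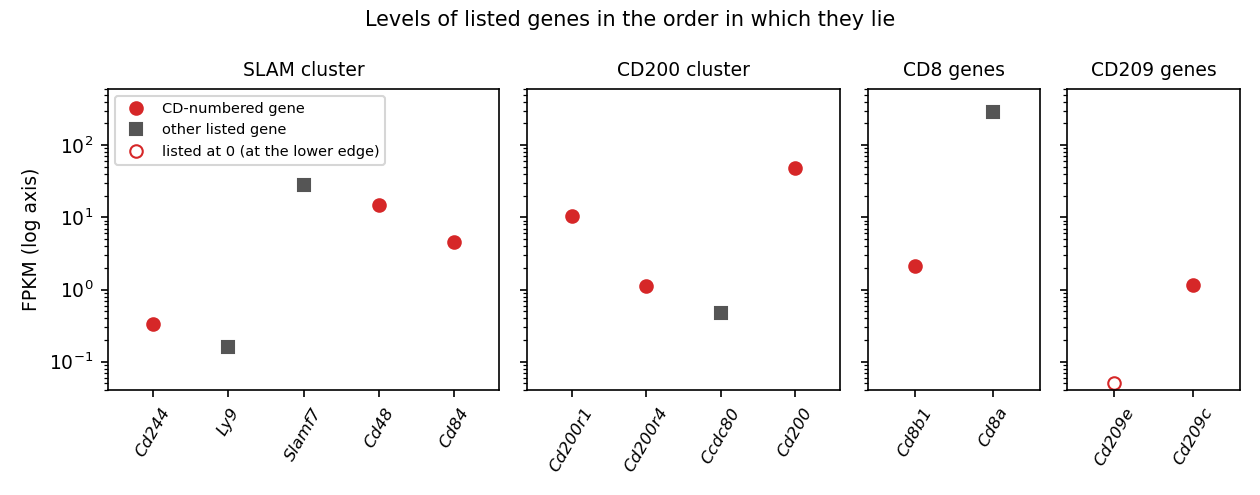
Levels in FPKM (log axis) of the listed genes of 4 clusters, in the order in which they lie on the chromosome and not to scale of distance. Circles are genes CD-numbered by symbol, squares other listed genes, and the open circle is listed at 0. Slamf7 is 177 times its neighbour Ly9, and Cd8a 139 times Cd8b1.

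What the 30 genes share beyond the name was looked for in their promoters, as the 250 bases before each RefSeq start. The stretches below are of the 4 highest and the 2 lowest genes above 0 that had at least 100 such bases free of exons in the GENCODE annotation, and are shown to set high and low genes side by side. They come from RefSeq (GRCm38.p6, the assembly of mm10), read 5′ to 3′ on the gene's strand, and capitals mark a GC box, the letters GGGCGG on either strand. The stretches lie at chr2:93462503-93462705 (minus strand), chr16:49855404-49855632 (plus), chr2:102901666-102901915 (minus), chr16:45409054-45409303 (minus), chrX:71492850-71493099 (minus) and chr1:171558943-171559192 (plus).
Cd82: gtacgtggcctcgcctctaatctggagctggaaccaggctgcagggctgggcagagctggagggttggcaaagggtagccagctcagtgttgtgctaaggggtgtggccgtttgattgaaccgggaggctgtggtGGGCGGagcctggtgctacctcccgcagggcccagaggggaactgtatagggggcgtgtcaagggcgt
Cd47: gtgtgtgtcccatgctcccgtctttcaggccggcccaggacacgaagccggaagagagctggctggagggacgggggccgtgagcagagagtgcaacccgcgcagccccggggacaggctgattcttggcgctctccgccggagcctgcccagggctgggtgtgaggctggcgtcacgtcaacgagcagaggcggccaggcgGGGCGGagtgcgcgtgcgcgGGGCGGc
Cd44: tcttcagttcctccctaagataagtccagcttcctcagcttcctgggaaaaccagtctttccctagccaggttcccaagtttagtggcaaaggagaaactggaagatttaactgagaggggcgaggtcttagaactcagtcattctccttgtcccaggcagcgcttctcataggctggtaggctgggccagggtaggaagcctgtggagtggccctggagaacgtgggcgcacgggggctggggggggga
Cd200: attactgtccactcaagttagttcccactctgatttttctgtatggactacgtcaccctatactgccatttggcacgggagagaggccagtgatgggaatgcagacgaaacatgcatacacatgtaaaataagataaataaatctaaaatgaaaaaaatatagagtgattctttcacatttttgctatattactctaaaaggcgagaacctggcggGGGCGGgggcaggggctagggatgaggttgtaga
Cd99l2: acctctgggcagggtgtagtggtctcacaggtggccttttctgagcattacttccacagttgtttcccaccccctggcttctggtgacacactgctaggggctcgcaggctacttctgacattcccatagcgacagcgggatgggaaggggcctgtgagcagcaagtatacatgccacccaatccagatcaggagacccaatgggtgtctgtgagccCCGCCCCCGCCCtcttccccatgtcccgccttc
Cd244: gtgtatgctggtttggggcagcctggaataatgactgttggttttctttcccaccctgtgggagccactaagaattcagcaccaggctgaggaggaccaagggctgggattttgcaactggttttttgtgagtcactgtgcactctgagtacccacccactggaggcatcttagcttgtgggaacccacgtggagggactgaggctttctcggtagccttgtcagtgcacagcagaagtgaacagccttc

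The printed stretch of Cd82 holds 1 GC box, that of Cd47 2, Cd200 1 and Cd99l2 2, and those of Cd44 and Cd244 hold none. Where a gene had several windows, the one with the longest stretch free of exons was printed. The stretch of Cd82 lies within the interval of its row, not before it. Other windows of Cd82 had 3, 11 and 14 CG dinucleotides, and those with 3 and 11 held no GC box. The stretch of Cd47 has 23 CG dinucleotides, against 2 in that of Cd244. A high level thus came with a CG-rich stretch in Cd47 and with a CG-poor one, with 5, in Cd44.

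Of the 30 genes, 23 had a window in the RefSeq table, 29 windows in all. Cd83, Cd200r1, Cd8b1, Cd1d1, Cd70, Cd14 and Cd226 were not matched. Taking for each gene the window with the most, the CD-numbered genes had a median of 6.0 CG dinucleotides, against 17 over all listed genes and 6.0 over all genes. The 9 genes at or over the median level of the table had a median of 6.0, and the 14 under it 5.0. Over all listed genes, these medians were 18 and 16. The promoters of the CD-numbered genes were thus poorer in CG than those of the listed genes, a description over 23 genes with no test. Counted by gene, they differed little by level, and the mean over each gene's windows gave the same medians for them. Counted by window, where a gene with several windows weighs more, the median was clearly higher at or over the median level than under it. Whether CG content differs by level thus depends on the way of counting. A GC box was found in 41.4% of their windows, against 57.9% for listed genes and 32.7% for all genes. By gene, 6 of 9 CD-numbered genes at or over the median level had one (66.7%), and 4 of 14 under it (28.6%). Over all listed genes, these shares were 67.8% and 63.1%.

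**Figure D5:**
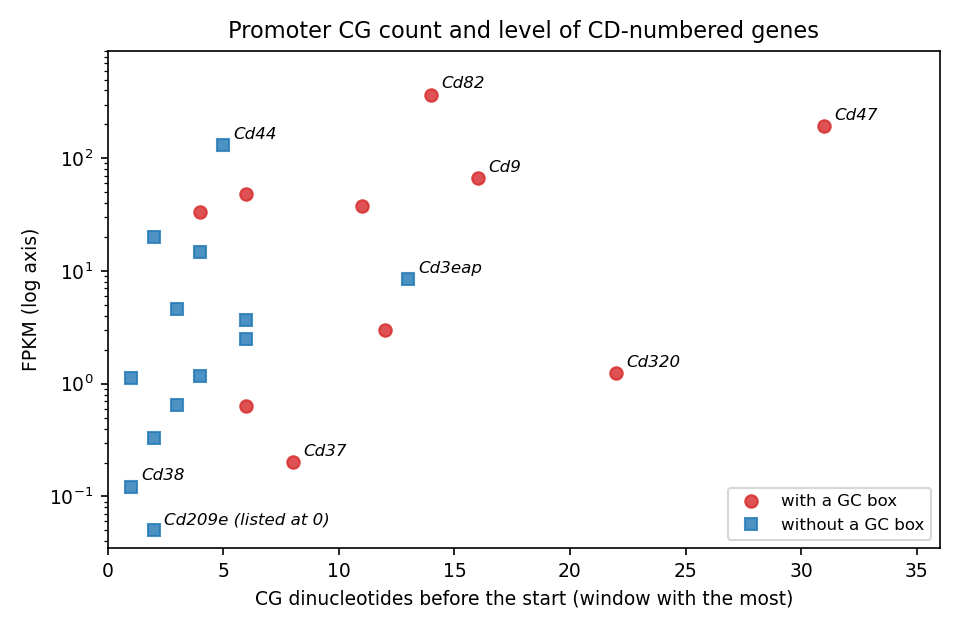
Number of CG dinucleotides in the 250 bases before the RefSeq start (the window with the most, where a gene has several) against FPKM on a log axis, 1 point per gene for 23 CD-numbered genes. Circles have a GC box in a window and squares have none; Cd47 has 31 CG dinucleotides, Cd320 has 22 at 1.24 FPKM, and Cd209e, listed at 0, is drawn at the lower edge.

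Motifs of factors known from dendritic cells were each in 0 to 7 of the 29 windows. The interferon-stimulated response element, on either strand, was in 0 of 29 windows, against 1.5% of the windows of listed genes and 0.898% of those of all genes. The NF-kB motif, on either strand, was in 1 window (3.45%), of Cd151 at 56 bases before the start, against 9.02% and 7.25%. That window (chromosome 7, 141468539 to 141468788) lies within the interval of the Cd151 row, not before it. The AP-1 motif TGANTCA was in 3 windows (10.3%, against 4.65% and 6.75%), those of Cd68, Cd84 and Cd244. The PU.1 core GAGGAA was in 7 (24.1%, against 22.5% and 23.3%), among them those of Cd44 and, at 39 bases before the start, Cd53. TATAAA was in 0, against 6.83% and 12.4%. With 29 windows, shares this small rest on single genes, and a motif outside these bases would not be seen.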

How the data were processed

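RNA of 2 libraries of pIC-activated DC1940 cells was analysed as 1 group. Per the file headers, the authors deposited FPKM values, with 1 value per gene, and the way the libraries were merged is not stated. Alignment with TopHat2 2.1.0 to mm10, Cufflinks 2.2.1 and read checks with FastQC 0.11.5 are named in the submitters' processing notes. No column belonged to another sample, and 1 row was not used.

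Genes were taken by symbol and matched to RefSeq (GRCm38.p6) by accession, which placed each of the 30 in 1 gene. Starts count from 0 in the table, so 1 was added. Coding genes and exons came from GENCODE M21. Levels were described by median, quartiles and counts, beside the same over all rows, with no test, because there is 1 condition and 1 pooled value per gene. A limma fit on values per library was planned and could not be run. The members, role lists and thresholds were chosen with earlier results of these data known. The naming rule was every member, and up to 6 listed genes with the highest FPKM of each partner list; 1 gene of these lists is not reported here. Since the depth is not known, values carry neither an interval nor a floor. Motif search was tested on simulated data with planted motifs. Python 3.11.15, pandas 2.3.3, numpy 2.4.6 and matplotlib 3.10.9 were used.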

Additional observations from a re-analysis of the deposited data

How the results depend on the processing

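No paired analysis was possible because the table pools the 2 libraries, which also kept a library from being left out. The median level of the CD-numbered genes, 2.74 FPKM, was 2.50 without Cd3eap. With the 7 listed genes that the rule leaves out it was 8.44, against 9.68 over all rows. The level was 6.64 as the mean of log2(FPKM + 1) turned back to FPKM, against 10.9 over all rows. The median was 9.39 with a floor of 1 FPKM and 42.7 with a floor of 5 FPKM. Over all rows it was 13.9 and 24.8 with those floors. With the higher floor the CD-numbered genes thus lay above the table, by the removal of their many low values. The count of 4 genes at 100 FPKM or more was 2 at 200 FPKM, 5 at 50 FPKM and 8 with the genes the rule leaves out. The listed share of 32.6% was 31.3% over all 96 CD symbols of the role lists. Leaving out the 2 rows that overlap another coding gene changed neither the median nor the count. Depth is unknown, so values under 1 FPKM have no measured precision.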
